A study of Mus musculus with 24 samples.

Results

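Pancreatic islet libraries were examined for 9 G protein-coupled receptors through which hormones, nutrients and nerves raise or lower insulin release. They were Glp1r, Gipr and Gcgr, the receptors of the incretins and of glucagon, Ffar1 and Gpr119, receptors of fatty acids and other lipids, Adra2a, Sstr3 and Galr1, which restrain secretion, and Chrm3, the muscarinic receptor of the parasympathetic input. The members were the rows of the deposited expression table whose NCBI Gene numbers map to these 9 symbols, and all 9 were found among 28059 genes. Expression was in RPKM, a read count scaled to transcript length and to the number of mapped reads, so that levels of different genes can be set side by side.

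The islets came from mice of mixed background aged 3 to 4 months and were cultured and handpicked before total RNA was extracted. Libraries fell into 2 sets by the series of their sample names, and each set had its own control group, so that comparisons were made within a set. Controls carried Cop1 fl/fl and no Cre (3 libraries in set 1, 4 in set 2). Cop1-deleted islets carried Cop1 fl/fl together with Pdx1.CreERT2 (3 libraries in set 1, 4 in set 2). The additional deletion in set 1 (4 libraries, here Cop1 Etv1/4/5) combined Cop1fl/fl with Etv1fl/fl, with Etv4ko/ko and with Etv5fl/fl, and in set 2 (4 libraries, here Cop1 Etv4/5) it combined Cop1fl/fl with Etv4ko/+ and with Etv5fl/fl. Both of these groups also carried Pdx1.CreERT2. Cop1 is a ubiquitin ligase, and Etv1, Etv4 and Etv5 are the PEA3 transcription factors that it targets. CreERT2 is a tamoxifen-dependent recombinase, driven here from the Pdx1 promoter, which is active in β cells. The labels name no tamoxifen treatment for any group. Since the controls are labelled as lacking the Cre, its presence and the loss of Cop1 cannot be told apart. The labels do not tie libraries to mice, so p-values measure the spread between these libraries.

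As background, a β cell secretes insulin when glucose metabolism closes potassium channels and calcium enters. Receptors coupled to the stimulatory G protein, such as those for GLP-1, GIP and glucagon, raise cyclic AMP and thereby amplify that secretion. Receptors coupled to inhibitory G proteins, such as those for adrenaline, somatostatin and galanin, lower cyclic AMP and restrain it. Receptors coupled to Gq, such as the muscarinic receptor and the long-chain fatty acid receptor, act through phospholipase C and stored calcium.

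The members' values rest on libraries that were not alike. Set 1 libraries had 0.331 to 0.526 of the depth of the deepest library, and set 2 libraries had 0.758 to 1 of it, judged from the smallest steps between low RPKM values. Cop1 itself, which checks the labels, was at 1.53, 1.22 and 1.55 RPKM in set 1 controls and at 1.13, 0.984 and 1 in the Cop1-deleted libraries. Set 2 values ran from 1.43 to 1.87 in controls and from 0.763 to 0.934 in Cop1-deleted libraries. In both sets no Cop1-deleted library reached its controls, as for 15.3% of all genes in set 1 and 8.43% in set 2. Cop1 was called lower in the mean of both sets (log2 fold change -0.48, limma adjusted p = 7.79e-05) and in set 2 (-0.64, adjusted p = 0.00011). It was not called in set 1 (-0.33, adjusted p = 0.066). Esr1, to which reads from the estrogen receptor part of CreERT2 can map, was between 44.0 and 111 RPKM in every Cre-carrying library and at 0.200 or below in 6 of the 7 controls. Among set 1 controls, Esr1 stood at 99.1 RPKM in the library labelled replicate 2, which goes against its label. That library, which held the 1.22 RPKM of Cop1, was the lowest of its group for 7 of the 9 receptors. Such runs occurred elsewhere, with set 1 Cop1-deleted replicate 2 lowest of its group for 8 of 9 and Cop1 Etv4/5 replicate 1 for 7 of 9. Etv4 was at 0.927 to 1.53 RPKM in the libraries labelled Etv4ko/ko and at 0.118 or below in the other set 1 libraries, so that the deletion was not visible in gene-level RPKM. Etv4 was instead called higher in the Etv4ko/ko libraries than in Cop1-deleted ones (log2 fold change 1.63, limma adjusted p = 3.94e-05) and controls (1.61, adjusted p = 7.03e-05). Neither Etv1 nor Etv5 passed the test between these libraries and the Cop1-deleted ones (adjusted p = 0.817 and 0.683). In set 2, Cop1 Etv4/5 against Cop1-deleted libraries gave log2 fold changes of 0.01 for Etv4 and -0.33 for Etv5, neither called (adjusted p = 0.982 and 0.514). Cop1 Etv1/4/5 and Cop1 Etv4/5 in the following mean the libraries so labelled. In set 2, Cop1-deleted replicates 2 and 3 carried Y-linked transcripts and so did Cop1 Etv4/5 replicates 1 and 3, while all 4 controls carried Xist alone, and 3 set 1 libraries carried both.

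All 9 receptors passed the expression filter of at least 1 RPKM in at least 4 libraries, each in all 22 libraries. Glp1r was the most abundant of them in every group. In set 1 controls the order by mean RPKM was Glp1r at 189 ± 26 (SD, n = 3), Adra2a at 90.3 ± 10, Sstr3 at 51.0 ± 2.4, Gipr at 42.3 ± 11, Ffar1 at 36.8 ± 8.0, Chrm3 at 16.4 ± 2.0, Gcgr at 16.3 ± 2.7, Galr1 at 15.4 ± 2.0 and Gpr119 at 3.50 ± 0.74. Glp1r, Adra2a and Sstr3 stood apart from one another in every library of that group, and Gpr119 was below all others. Sstr3, Gipr and Ffar1 overlapped between neighbours, as did Chrm3, Gcgr and Galr1, so no order of group values is read within those runs. Within single libraries, Sstr3 was above Gipr and Gipr above Ffar1 in 3 of 3. Chrm3 was above Gcgr in 2 of 3 and Gcgr above Galr1 in 1 of 3. In set 2 controls Glp1r, at 99.7 ± 21 (SD, n = 4), again stood above every other receptor. There Ffar1 at 42.8 ± 3.2, Adra2a at 37.7 ± 8.4 and Sstr3 at 36.7 ± 5.0 overlapped, and so did Gipr, Chrm3, Galr1, Gcgr and Gpr119 between neighbours, from 18.2 ± 9.1 down to 6.41 ± 2.4.

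**Figure D1:**
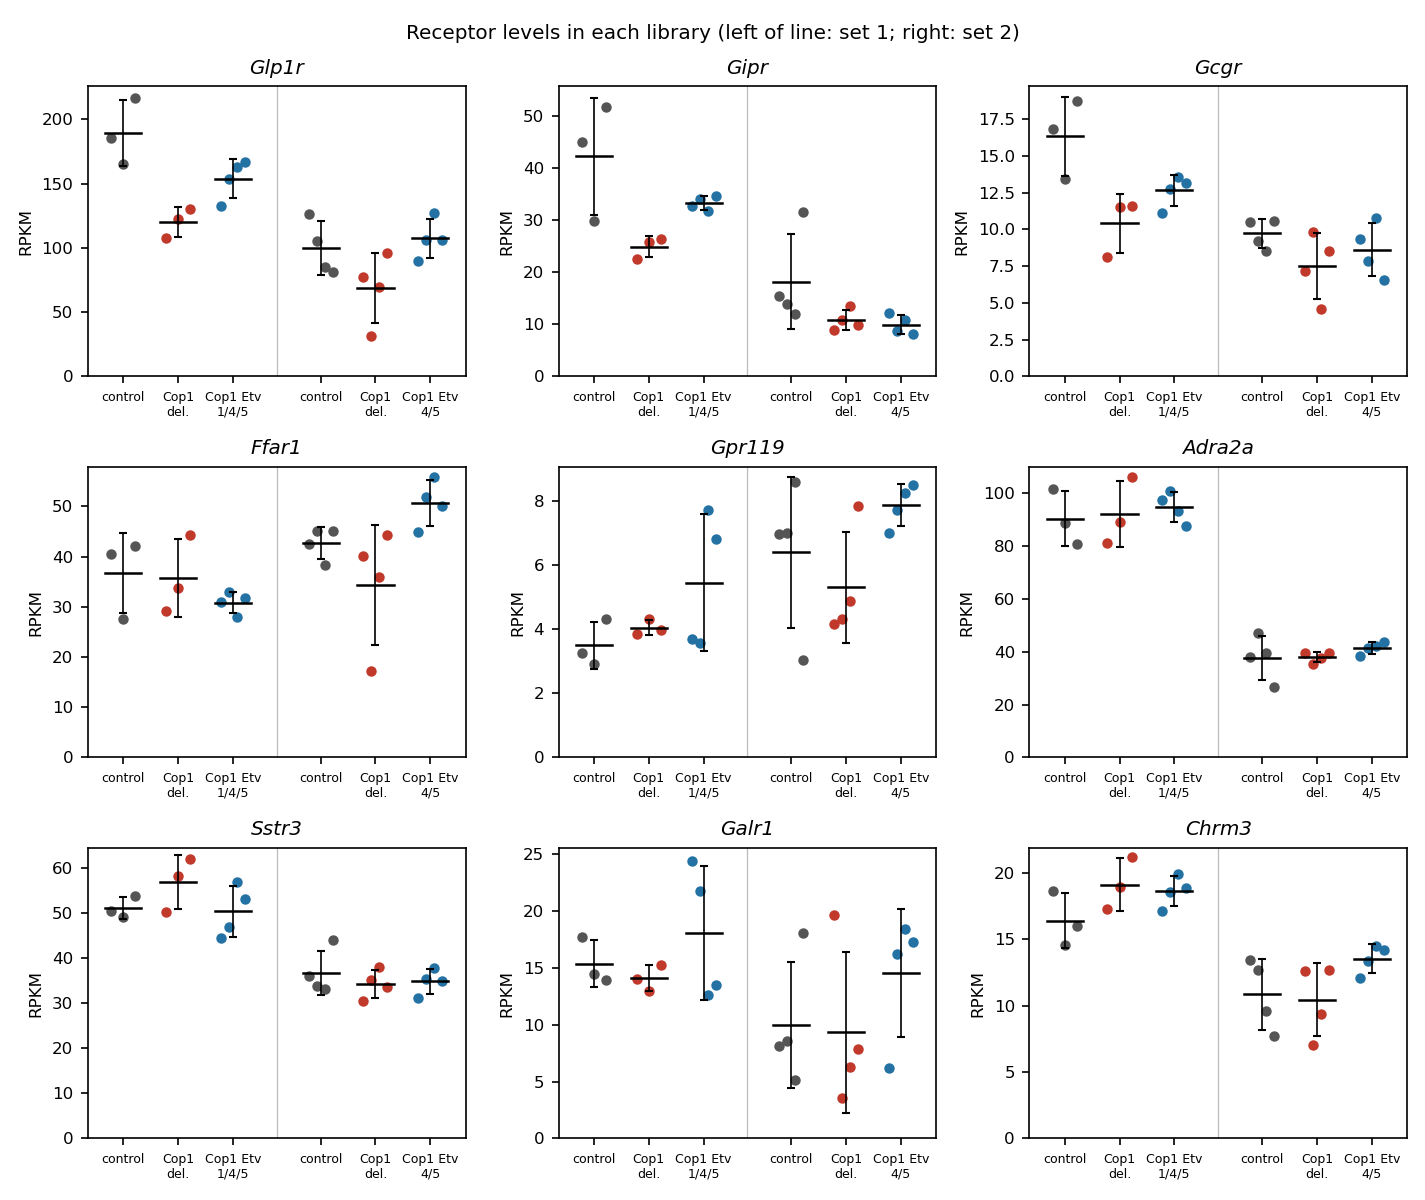
RPKM of each of the 9 receptors (vertical axis, starting at 0) in every library of the 6 groups, with set 1 left of the grey line and set 2 right of it; points are libraries, the horizontal line is the group mean and the bar its SD. In set 1 all Cop1-deleted libraries lie below all controls for Glp1r, Gipr and Gcgr, in set 2 these groups overlap with 3 of 4 Cop1-deleted libraries below every control, and Adra2a and Sstr3 overlap in both sets.

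The comparison of Cop1-deleted with control islets asked what loss of the ligase does to receptor expression. Across both sets, the receptors for GLP-1, GIP and glucagon fell, and the lipid receptors, the inhibitory receptors and the muscarinic receptor did not pass the test. In bulk islets, fewer cells of a type and less RNA per cell cannot be told apart. Differences are given as log2 fold changes of RPKM + 0.5, tested with limma over 14342 genes with Benjamini-Hochberg adjustment and a threshold of 0.05. In the mean of both sets 3 of the 9 receptors were lower and none was higher, against 10.5% of all tested genes lower and 9.57% higher. The median log2 fold change was -0.16 over the 9 receptors and -0.02 over all genes tested.

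Glp1r (NCBI Gene 14652, chromosome 17) encodes the GLP-1 receptor, the main incretin receptor of the β cell. In set 1 it was at 185, 166 and 217 RPKM in controls and at 108, 122 and 130 in Cop1-deleted libraries, so that no Cop1-deleted library reached a control. Set 2 libraries had 127, 106, 84.8 and 81.6 in controls and at 77.5, 31.5, 69.7 and 96.3 in Cop1-deleted libraries. There 3 of 4 Cop1-deleted libraries lay below every control, and replicate 2 was far below the other libraries. The Cop1-deleted mean was 63.6% of the control mean in set 1 and 69.0% in set 2. Within set 2 the log2 fold change of Glp1r was -0.62, and without replicate 2 it was -0.28 (adjusted p = 0.229). Glp1r fell by 0.63 on the log2 scale in the mean of both sets (SE 0.18, 95% interval -1.01 to -0.26, limma adjusted p = 0.0162). The call ended with Ddx3y, a Y-linked gene, as a covariate (log2 fold change -0.51, adjusted p = 0.0623) and in a fit of these groups alone (adjusted p = 0.0711), and it held with each library left out in turn. Without both set 2 Cop1-deleted libraries that carry Y-linked transcripts the log2 fold change of Glp1r was -0.41 (adjusted p = 0.0165), and with array weights, which called 2909 of all 14342 genes higher and 3350 lower, it was -0.41.

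Gipr (NCBI Gene 381853, chromosome 7) encodes the receptor of the other incretin, GIP. Its set 1 values were 45.1, 29.9 and 51.8 RPKM in controls and 22.6, 25.7 and 26.3 in Cop1-deleted libraries, again without overlap. In set 2 controls had 15.5, 13.8, 11.9 and 31.6, and Cop1-deleted libraries had 8.94, 10.8, 13.4 and 9.83. Control replicate 4 of set 2, at 31.6, was more than any other set 2 library. The Cop1-deleted mean was 58.9% of the control mean in set 1 and 59.2% in set 2. Gipr fell by 0.68 on the log2 scale in the mean of both sets (SE 0.17, limma adjusted p = 0.00805). Without that control replicate the log2 fold change was -0.53, with an adjusted p of 0.00353. Within set 2 it was -0.64 with that replicate and -0.34 without it (adjusted p = 0.137).

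Gcgr (NCBI Gene 14527, chromosome 11) encodes the glucagon receptor, through which α cells act on β cells. It was at 16.8, 13.4 and 18.7 RPKM in set 1 controls and at 8.12, 11.5 and 11.6 in Cop1-deleted libraries, with no overlap. Set 2 libraries had 10.5, 9.21, 8.55 and 10.6 in controls and at 7.15, 9.82, 4.55 and 8.53 in Cop1-deleted libraries, where 3 of 4 lay below every control. Cop1-deleted means were 63.6% and 77.3% of control means. Gcgr fell by 0.51 on the log2 scale in the mean of both sets (SE 0.14, limma adjusted p = 0.0137). Gipr and Gcgr were called under all 39 alternatives, among which the permutation test counts at an unadjusted p below 0.05. Without the Esr1-carrying control library all 3 receptors were still called, with log2 fold changes of -0.68 for Glp1r, -0.79 for Gipr and -0.58 for Gcgr.

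An exact permutation of library labels within sets, two-sided, with 1400 splits and a smallest possible p of 0.00143, gave p = 0.00571 for Glp1r, 0.00286 for Gipr and 0.00571 for Gcgr, unadjusted. Within a single set none of the 3 passed the adjusted threshold. Each had an unadjusted limma p below 0.05 in each set. The share of all genes at that unadjusted level was not counted, so this is not read as support. In set 1 the adjusted p was 0.169 for Glp1r, 0.0992 for Gipr and 0.0747 for Gcgr, where 8.33% of all genes were called, and a fit of the set 1 groups alone called all 3 (adjusted p = 0.00456, 0.0169 and 0.0191). In set 2 it was 0.0693, 0.0525 and 0.139, where 18.8% were called, and scaling libraries to equal RPKM without Ins1 and Ins2 called all 3. That scaling moved the set 2 median of all genes to -0.16 and called 4049 genes lower and 632 higher, so its calls are not read as support. In set 1 all Cop1-deleted libraries lay below all controls for these 3 receptors and for 15.3% of all genes. With 3 libraries against 3 an exact permutation test cannot go below 0.1. The set 1 and set 2 differences of the 3 receptors were compared with each other: set 1 minus set 2 was -0.03 for Glp1r (95% interval -0.77 to 0.72), -0.08 for Gipr (-0.80 to 0.64) and -0.24 for Gcgr (-0.83 to 0.35). Without set 2 Cop1-deleted replicate 2 the Glp1r value was -0.36 (-0.83 to 0.10), and without set 2 control replicate 4 the Gipr value was -0.38 (-0.88 to 0.13), so that both rest on 1 library each. For Gcgr it was -0.10 without that Cop1-deleted replicate. None of the 9 receptors was called in that test, in limma at an adjusted or an unadjusted p below 0.05, against 2.83% of all genes.

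The 3 receptors that fell belong to 1 structural class, and 2 of them have a promoter window in the RefSeq table (GRCm38.p6), which covers 7 of the 9 receptors. The 250 bases before their starts are shown, with that of Chrm3, which did not pass the test, for comparison. Capitals mark matches to AGGAAG, the core of PEA3 sites.
Glp1r, chr17:30901617-30901866, plus strand: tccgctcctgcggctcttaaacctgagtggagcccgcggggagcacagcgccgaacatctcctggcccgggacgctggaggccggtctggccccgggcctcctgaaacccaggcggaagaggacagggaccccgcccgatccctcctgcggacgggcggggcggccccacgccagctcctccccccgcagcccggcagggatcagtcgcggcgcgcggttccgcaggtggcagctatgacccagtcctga
Gcgr, chr11:120530477-120530726, plus strand: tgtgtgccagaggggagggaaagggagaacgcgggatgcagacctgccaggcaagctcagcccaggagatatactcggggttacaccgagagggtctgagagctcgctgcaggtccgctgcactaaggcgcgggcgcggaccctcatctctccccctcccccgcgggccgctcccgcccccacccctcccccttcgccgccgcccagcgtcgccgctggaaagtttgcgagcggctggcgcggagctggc
Chrm3, chr13:10360804-10361053, minus strand: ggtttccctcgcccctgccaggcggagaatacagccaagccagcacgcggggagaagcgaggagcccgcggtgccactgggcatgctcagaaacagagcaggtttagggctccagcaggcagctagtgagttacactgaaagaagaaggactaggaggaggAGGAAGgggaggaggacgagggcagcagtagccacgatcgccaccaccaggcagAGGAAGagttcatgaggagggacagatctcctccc
Both strands were searched for this core, for the ETS motif CCGGAAG, which shares its last 5 letters with it, for the Maf recognition core TGCTGAC, for the cyclic AMP response element TGACGTCA and for the homeodomain motif TAATTA. The Glp1r and Gcgr windows hold none of these letters, and the Chrm3 window holds the PEA3 core at 89 and 35 bases before the start. Gpr119 holds 1 PEA3 core, at 176 bases before its start, and Ffar1 holds 1 Maf core, at 188 bases. Among 32851 windows of this length, 29.5% hold the PEA3 core, 6.91% the ETS motif, 3.81% the Maf core, 1.55% the cyclic AMP response element and 4.84% the homeodomain motif. The matches describe letters only.

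The nutrient receptors did not follow the incretin receptors in the test. Ffar1 (NCBI Gene 233081, chromosome 7), the receptor of long-chain fatty acids, was at 40.6, 27.6 and 42.2 RPKM in set 1 controls and at 29.1, 33.7 and 44.3 in Cop1-deleted libraries. In set 2 controls had 42.6, 45.1, 38.3 and 45.0, and Cop1-deleted libraries had 40.1, 17.1, 36.0 and 44.3. Groups overlapped in both sets, and replicate 2 of the set 2 Cop1-deleted group, also the lowest for Glp1r, was the lowest of all. The log2 fold change in the mean of both sets was -0.22 (95% interval -0.55 to 0.12, limma adjusted p = 0.373). Within set 2 it was -0.39 with that library (adjusted p = 0.198) and -0.09 without it.

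Gpr119 (NCBI Gene 236781, chromosome X), which senses oleoylethanolamide and related lipids, was the least abundant receptor. Its values were 3.27, 2.91 and 4.34 RPKM in set 1 controls, 3.86, 4.33 and 3.98 in Cop1-deleted libraries, 6.97, 7.03, 8.59 and 3.04 in set 2 controls and 4.17, 4.31, 4.88 and 7.87 in their Cop1-deleted counterparts. Each set had overlapping groups, and 1 library per group in set 2 stood on the opposite side from the other 3. The log2 fold change in the mean of both sets was -0.00 (95% interval -0.43 to 0.42, limma adjusted p = 0.990).

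Among the inhibitory receptors, Adra2a and Sstr3 had the narrowest intervals around no change. Adra2a (NCBI Gene 11551, chromosome 19), the α2A-adrenergic receptor through which sympathetic nerves stop insulin release, was at 101, 88.6 and 80.9 RPKM in set 1 controls and at 81.4, 89.3 and 106 in Cop1-deleted libraries. In set 2 it was at 37.8, 46.9, 39.5 and 26.6 in controls and at 39.7, 35.5, 37.5 and 39.5 in Cop1-deleted libraries. Its log2 fold change in the mean of both sets was 0.03 (95% interval -0.16 to 0.23, limma adjusted p = 0.837). Sstr3 (NCBI Gene 20607, chromosome 15), a somatostatin receptor carried on primary cilia of β cells, was at 50.4, 49.0 and 53.7 in set 1 controls and at 50.2, 58.2 and 61.9 in Cop1-deleted libraries. Set 2 libraries had 36.0, 33.7, 33.2 and 43.9 in controls and 30.5, 35.0, 37.9 and 33.6 in Cop1-deleted libraries. The log2 fold change of Sstr3 was 0.03 (95% interval -0.13 to 0.18, limma adjusted p = 0.832). Groups of both receptors overlapped in each set, and the intervals leave room for a change of up to 0.23 on the log2 scale upward and 0.16 downward.

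Galr1 (NCBI Gene 14427, chromosome 18), a galanin receptor, had the largest SD relative to its mean in each group of set 2. Its set 1 values were 17.7, 14.5 and 13.9 RPKM in controls and 14.1, 13 and 15.2 in Cop1-deleted libraries. In set 2 it was at 8.17, 8.58, 5.14 and 18 in controls and at 19.7, 3.57, 6.24 and 7.83 in Cop1-deleted libraries, so that 1 library of each group was far above its 3 neighbours. The log2 fold change was -0.16 with a 95% interval from -0.83 to 0.51 (limma adjusted p = 0.761), which is wide enough to hold changes as large as those of Glp1r and Gipr.

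Chrm3 (NCBI Gene 12671, chromosome 13), the M3 muscarinic receptor that couples to Gq, was at 18.6, 14.6 and 16.0 RPKM in set 1 controls and at 17.2, 18.9 and 21.2 in Cop1-deleted libraries. Set 2 controls had 13.4, 12.6, 9.57 and 7.69, and Cop1-deleted libraries had 12.6, 7.03, 9.38 and 12.7. The groups overlapped in both sets. The log2 fold change in the mean of both sets was 0.08 (95% interval -0.18 to 0.34, limma adjusted p = 0.701).

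**Figure D2:**
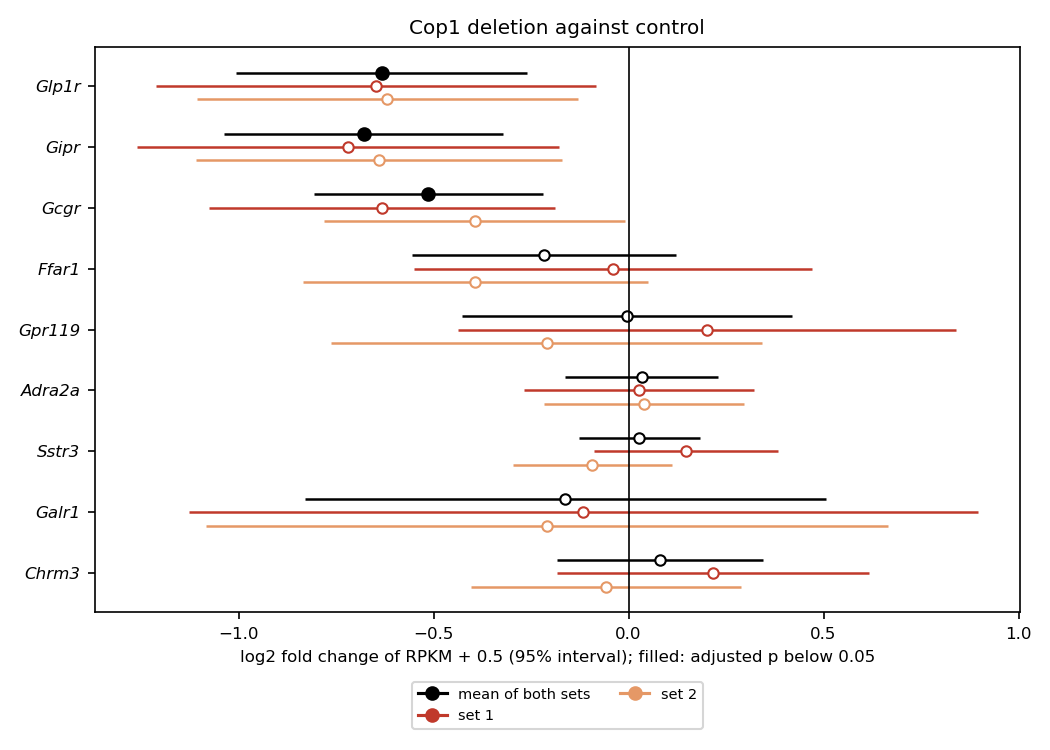
Log2 fold change of RPKM + 0.5 (horizontal axis) of each receptor in Cop1-deleted against control libraries, for the mean of both sets, set 1 and set 2, with 95% intervals; filled points have an adjusted p below 0.05. The 3 filled points are Glp1r, Gipr and Gcgr in the mean of both sets, at -0.63, -0.68 and -0.51.

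Libraries of islets with the added Etv deletions were compared with Cop1-deleted ones to ask whether receptor expression depends on these factors. No receptor passed the adjusted test in either set. The log2 fold changes of single receptors are given for each set, and a difference between the sets was not tested. In set 1 limma called 0 of the 9 receptors at an adjusted or an unadjusted p below 0.05, against 6.34% of all genes called. In set 2 limma called 0 after adjustment, against 1.73% of all genes. There 4 receptors had an unadjusted p below 0.05, a level at which the share of all genes was not counted.

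In set 1 the Cop1 Etv1/4/5 libraries lay between the Cop1-deleted and the control means for the 3 receptors that fell. Glp1r was at 132, 154, 163 and 167 RPKM, all above the 3 Cop1-deleted libraries, with a log2 fold change of 0.35 against them (95% interval -0.17 to 0.88, limma adjusted p = 0.522). Gipr was at 32.6, 34.1, 31.8 and 34.7, again all above the Cop1-deleted libraries, with a log2 fold change of 0.42 (-0.09 to 0.92, limma adjusted p = 0.394). Gcgr was at 11.1, 12.7, 13.6 and 13.2, where 3 of 4 libraries were above every Cop1-deleted one, with a log2 fold change of 0.28 (-0.13 to 0.70, limma adjusted p = 0.510). Of all genes, 16.6% had all Cop1 Etv1/4/5 libraries above all Cop1-deleted ones. An exact permutation test gave p = 0.057 for Glp1r and, for Gipr, p = 0.029, the smallest this design allows, and a fit of these 2 groups alone called both (adjusted p = 0.0334 and 0.00288), whereas a fit of all set 1 groups alone called neither (adjusted p = 0.0574 and 0.111). Set beside controls, the Cop1 Etv1/4/5 means were 81.3% for Glp1r, 78.8% for Gipr and 77.4% for Gcgr, and limma called none of the 9 receptors at an adjusted or unadjusted p below 0.05, where 1.32% of all genes were called.

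The other 6 receptors overlapped between Cop1 Etv1/4/5 and Cop1-deleted libraries. Ffar1 was at 30.9, 32.9, 27.9 and 31.6 RPKM, Adra2a at 97.3, 101, 93.3 and 87.8, and Sstr3 at 44.5, 46.9, 56.9 and 53.0. Chrm3 was at 17.1, 18.6, 19.9 and 18.9, within the range of the Cop1-deleted group except for its lowest library. Gpr119 was at 3.70, 3.58, 7.74 and 6.81 and Galr1 at 24.5, 21.8, 12.7 and 13.5, so that replicates 1 and 2 differed from 3 and 4 for both receptors, in opposite directions. In these libraries 5 of 9 β-cell markers were higher than in Cop1-deleted ones, and 2 of 9 were in the Cop1 Etv4/5 libraries of set 2. Their part in the receptor values was not tested.

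In set 2 the 3 receptors that fell did not move together. Glp1r was at 89.8, 106, 127 and 106 RPKM in the Cop1 Etv4/5 libraries, where 3 of 4 were above every Cop1-deleted library, with a log2 fold change of 0.74 against them (95% interval 0.25 to 1.23, limma adjusted p = 0.102). Its mean was 108% of the control mean. Gipr was at 12.1, 8.74, 10.8 and 8.15, inside or below the Cop1-deleted range, with a log2 fold change of -0.11 (-0.58 to 0.36, limma adjusted p = 0.791). Gcgr was at 9.33, 7.85, 10.7 and 6.55 and overlapped with both other groups (log2 fold change 0.21, -0.17 to 0.60, limma adjusted p = 0.487).

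Against set 2 controls, Gipr was the 1 receptor called: the Cop1 Etv4/5 mean was 54.7% of the control mean and Gipr fell by 0.75 on the log2 scale (SE 0.22, 95% interval -1.22 to -0.28, limma adjusted p = 0.0425). Of all genes, 8.74% were called in this comparison, 3.75% lower and 4.99% higher. The call ended under 19 of the 40 alternatives, the Ddx3y covariate among them, and without control replicate 4, at 31.6 RPKM, the log2 fold change was -0.45 (adjusted p = 0.1). Glp1r against the same controls had a log2 fold change of 0.12 (95% interval -0.37 to 0.61). These comparisons share the set 2 controls or the Cop1-deleted libraries and are not independent of each other.

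Ffar1 had all 4 Cop1 Etv4/5 libraries, at 44.8, 51.8, 55.9 and 50.2 RPKM, above all Cop1-deleted ones, as 7.22% of all genes did. Its log2 fold change was 0.63 (95% interval 0.19 to 1.08, limma adjusted p = 0.114), and an exact permutation test gave p = 0.029, the smallest possible here. Gpr119 was at 7.02, 7.72, 8.27 and 8.50, with a log2 fold change of 0.57 (0.01 to 1.12, limma adjusted p = 0.209), and Chrm3 at 12.1, 13.4, 14.5 and 14.2, with 0.39 (0.05 to 0.74, limma adjusted p = 0.177). Each of these has 2 or 3 of 4 libraries above the Cop1-deleted range. Without replicate 2 of the Cop1-deleted group the log2 fold changes of Glp1r and Ffar1 were 0.40 and 0.33. Galr1 was at 6.22, 16.2, 18.4 and 17.3, Adra2a at 38.2, 41.4, 42.1 and 43.7 and Sstr3 at 31.2, 35.3, 37.7 and 35.0, and all 3 overlapped with the Cop1-deleted libraries.

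**Figure D3:**
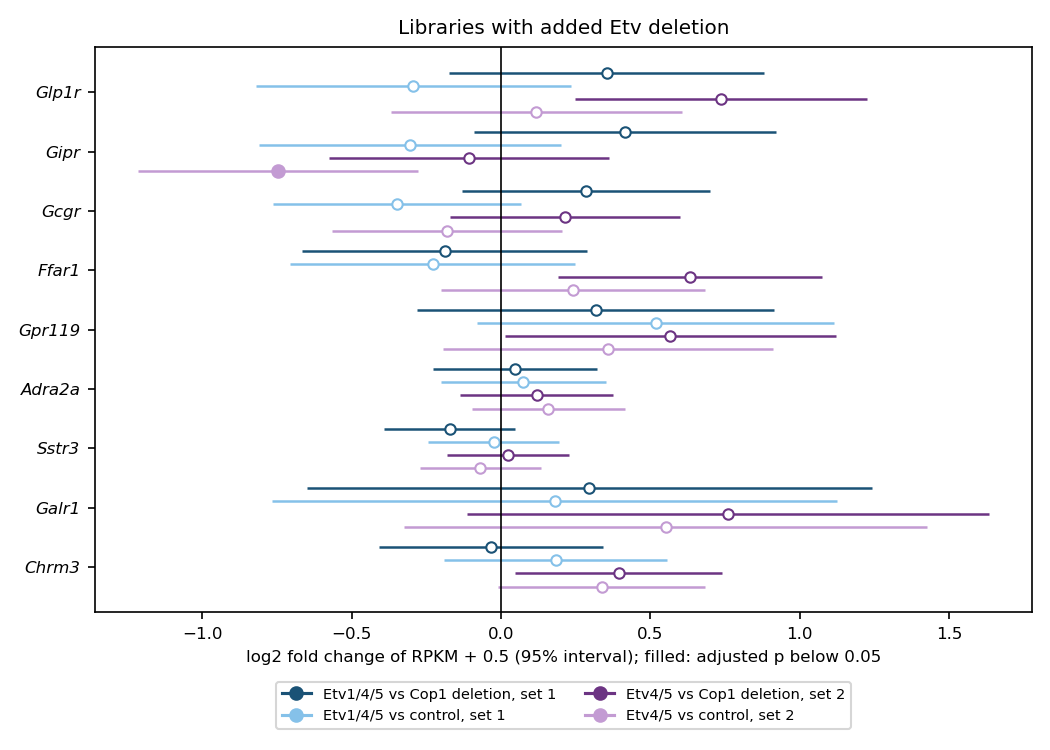
Log2 fold change of RPKM + 0.5 (horizontal axis) of each receptor in the Cop1 Etv1/4/5 libraries (set 1) and the Cop1 Etv4/5 libraries (set 2), each against Cop1-deleted and against control libraries, with 95% intervals; filled points have an adjusted p below 0.05. The only filled point is Gipr against set 2 controls, at -0.75.

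The balance between a stimulatory and an inhibitory receptor was read in each library as the ratio of Glp1r to Adra2a RPKM, a pair chosen after its values were seen and described without a test. In set 1 it was 1.82, 1.87 and 2.68 in controls, 1.33, 1.37 and 1.23 in Cop1-deleted libraries and 1.36, 1.52, 1.74 and 1.90 in Cop1 Etv1/4/5 libraries. In set 2 it was 3.35, 2.25, 2.15 and 3.06 in controls, 1.95, 0.888, 1.86 and 2.44 in Cop1-deleted libraries and 2.35, 2.56, 3.02 and 2.43 in Cop1 Etv4/5 libraries. Glp1r exceeded Adra2a in every library but replicate 2 of the set 2 Cop1-deleted group.

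Over all 22 libraries, with each set's mean removed, Pearson correlations between receptors describe which varied together. They were 0.81 between Glp1r and Ffar1, 0.63 between Glp1r and Chrm3, 0.69 between Adra2a and Chrm3, 0.55 between Gipr and Gcgr and 0.21 between Glp1r and Gipr. Glp1r thus varied more with Ffar1 than with Gipr, and the points share genotype groups, depth and the libraries that stand apart. By the same measure the genes most like Glp1r were Specc1l (0.97), Itpkb (0.95) and Prkcb (0.92), those most like Gipr were Xrcc3 (0.90), Nab2 (0.89) and Nrbp2 (0.89), and those most like Gcgr were Gdap1l1 (0.86), Mtch1 (0.84) and Rogdi (0.83). Ffar1 was most like Dnmt3a (0.93), Cnot6l (0.92) and Rcor3 (0.91), Gpr119 most like Mcoln3 (0.86), Cdh7 (0.80) and Bbs9 (0.80), and Chrm3 most like Slc16a12, Ghr and Nlk (0.88 each). Adra2a reached 0.80 with each of Dcun1d2, Hdhd2 and Ubl3, and Sstr3 reached 0.75 with Zfp395 and Cd44 and 0.74 with Pidd1. Galr1 had Mbp (0.79), Zfp236 (0.78) and Mast3 (0.73).

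Mbp and Zfp236 are the first and second genes beside Galr1, on 1 side of it, on chromosome 18 in the RefSeq table (GRCm38.p6). They were singled out after their values were seen. Galr1, Mbp and Zfp236 were each higher in replicates 1 and 2 than in replicates 3 and 4 of the Cop1 Etv1/4/5 group: Mbp had 28.3, 25.7, 16.8 and 18 RPKM and Zfp236 had 8.05, 6.92, 5.17 and 5.31. Replicate 1 of the set 2 Cop1-deleted group, with the highest Galr1 of its group, also had its highest Mbp (22.7) and Zfp236 (7.07). Replicates 1 and 2 of the Cop1 Etv1/4/5 group had Xist at 0.00822 and 0.0129 RPKM. Its replicates 3 and 4 had Xist at 29.4 and 24.2 RPKM together with Y-linked transcripts. In this group the split of Galr1, Mbp, Zfp236 and the X-linked Gpr119 thus coincides with that of Xist. In set 2 Galr1 did not divide in that way. Cop1-deleted replicate 1, with Galr1 at 19.7 RPKM, had Xist at 74.2, and replicates 2 and 3, with Y-linked transcripts, had Galr1 at 3.57 and 6.24. Cop1 Etv4/5 replicate 3, with Y-linked transcripts, had Galr1 at 18.4, and replicates 2 and 4, with Xist, had 16.2 and 17.3. The part of the difference in Xist between libraries in the values was not tested. Control replicate 4 of set 2 broke the pattern of Galr1 with Mbp, with 18 RPKM of Galr1 but the lowest Mbp of its group (14 RPKM). The 6 other neighbours examined, Ctdp1, Nfatc1, Atp9b, Zfp516, Tshz1 and Zadh2, reached correlations of 0.02 to 0.33 with Galr1. Correlation with a neighbour was not particular to Galr1. Chrm3 reached 0.80 with Dip2c and 0.72 with Mtr, and Glp1r reached 0.74 with Btbd9, neighbours named after their values were seen.

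**Figure D4:**
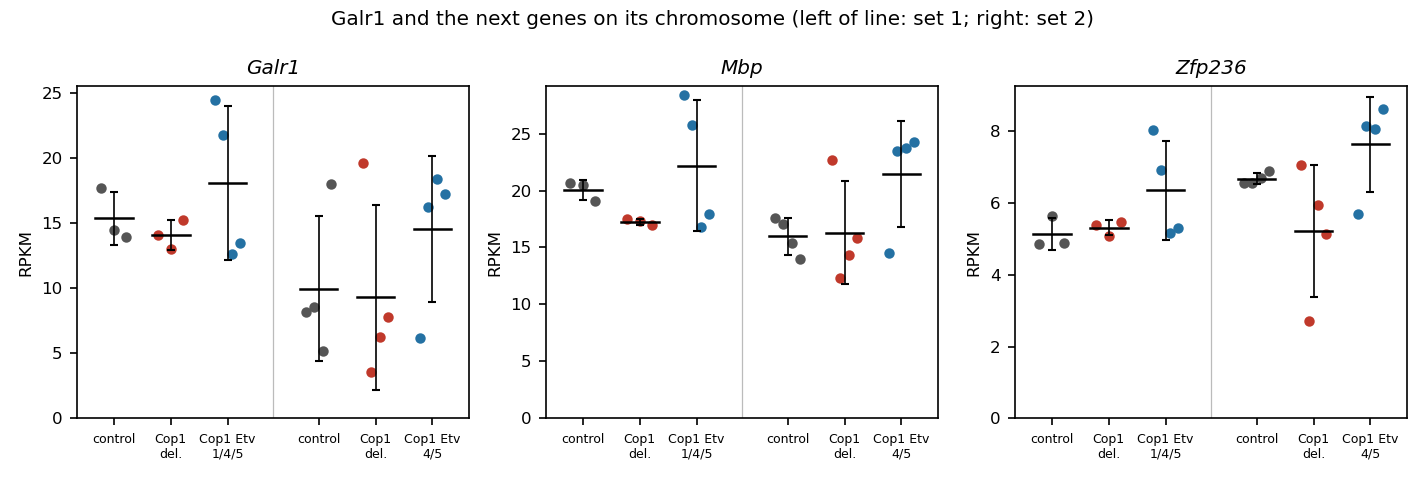
RPKM (vertical axis, starting at 0) of Galr1 and of the next genes on its chromosome, Mbp and Zfp236, in every library, with set 1 left of the grey line; points are libraries, lines are group means and bars SDs. The Cop1 Etv1/4/5 libraries split in the same way for all 3 genes, with replicates 1 and 2 above 3 and 4.

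Other genes of the same signalling routes were counted in lists, with their calls in the mean of both sets against 20.1% of all genes called. Of 18 tested receptors other than the members that raise cyclic AMP or calcium, 3 fell and 1, not reported here, rose. Vipr1, a receptor of the neuropeptides VIP and PACAP and of the same class as Glp1r, had 17.4 to 20.4 RPKM in set 1 controls and 9.31 to 9.65 in Cop1-deleted libraries, and 22 to 30.1 and 8.16 to 16.0 in set 2. Its groups did not overlap in either set, and it fell by 1.03 on the log2 scale (SE 0.11, limma adjusted p = 3.73e-06). All Cop1-deleted libraries lay below all controls for 15.3% of all genes in set 1 and for 8.43% in set 2. Crhr1, the receptor of corticotropin-releasing hormone and urocortins, fell by 1.29 (adjusted p = 0.000135) from low levels of 1.27 to 4.48 RPKM in set 1 controls and 0.202 to 0.670 in set 2 controls. Every set 1 control reached the 1 RPKM of the expression filter and no set 2 control did, so the fall of Crhr1 is not read for each set. Adora2b, an adenosine receptor, fell by 0.66 (adjusted p = 0.000663). That fall differed between the sets, by -1.33 on the log2 scale (limma adjusted p = 0.00482), with 14.9 to 21.7 RPKM in set 1 controls, 5.89 to 9.82 in their Cop1-deleted libraries, and 5.6 to 8.36 against 6.22 to 8.31 in set 2.

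Of 14 tested receptors listed as lowering cyclic AMP, 3 rose and 2 fell. The coupling of the listed receptors was not tested, so the count is of list members and not of cyclic AMP effects. Ffar2, a receptor of short-chain fatty acids, had 8.98 to 9.98 RPKM in set 1 controls and 17 to 18.4 in Cop1-deleted libraries, and 9.61 to 10.6 and 16.7 to 28.1 in set 2, without overlap. It rose by 0.99 on the log2 scale (limma adjusted p = 1.2e-07). All Cop1-deleted libraries lay above all controls for 14.7% of all genes in set 1 and for 7.63% in set 2. The other galanin receptors rose where Galr1 did not pass the test: Galr2 by 0.95 (adjusted p = 1.13e-06) and Galr3 by 0.44 (adjusted p = 0.00934). The Galr2 rise was larger in set 1, where it went from 0.956 to 1.39 RPKM in controls to 4.24 to 4.93 in Cop1-deleted libraries, than in set 2, and the sets differed by 1.27 (limma adjusted p = 0.00144). Ghsr, the ghrelin receptor, which islet δ cells carry, fell by 0.61 (adjusted p = 0.000595). The other receptor that fell was Cnr1, a cannabinoid receptor, named outside the naming rule after its values were seen.

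Of 11 tested ligands made in islets, 3 rose and 2 fell. Sst, the somatostatin that Sstr3 binds, had 3627 to 7079 RPKM in set 1 controls and 2307 to 2796 in Cop1-deleted libraries, and 3821 to 5456 and 2179 to 2930 in set 2, with no overlap. It fell by 0.84 (limma adjusted p = 0.000307). All Cop1-deleted libraries lay below all controls for 15.3% of all genes in set 1 and for 8.43% in set 2. Npy, the neuropeptide Y transcript, fell by 1.27 (adjusted p = 0.00798). Pyy rose by 1.06 (adjusted p = 0.00031) and Ppy by 1.33 (adjusted p = 0.00157). Both encode hormones of the pancreatic polypeptide family. Gcg, which encodes the glucagon that Gcgr binds, was at 17575 to 40247 RPKM in set 1 controls and 16752 to 25932 in Cop1-deleted libraries, and at 18563 to 31109 and 16945 to 28247 in set 2. Its ranges overlapped in each set, and it did not pass the test.

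Downstream of the receptors, 4 of 32 tested transduction genes rose and 6 fell. Prkar1a, a regulatory subunit of protein kinase A, rose by 0.76 (limma adjusted p = 2.33e-05). It had 776 to 1406 RPKM in set 2 Cop1-deleted libraries and 458 to 534 in their controls, and its set 1 values are not given here. For set 1 minus set 2, 1 of the 32 genes was called, with a negative difference, against 2.83% of all genes. Gnai3, an inhibitory G protein subunit, fell by 0.43 (adjusted p = 6.27e-05). Plcb3, a phospholipase C, and Itpr3, an inositol trisphosphate receptor, rose by 0.36 and 0.50 (adjusted p = 0.00045 and 0.00105). Of 13 tested desensitisation and accessory genes, 4 rose and 1 fell. For set 1 minus set 2, 1 of them was called with a positive and 1 with a negative difference. Grk5, a kinase that desensitises such receptors, had 10.5 to 13.8 RPKM in set 1 controls and 5.04 to 6.14 in Cop1-deleted libraries, and 6.45 to 10.3 and 3.76 to 4.59 in set 2, and fell by 1.03 (adjusted p = 2.97e-07). Ramp2 and Ramp1, accessory proteins of class B receptors, rose by 1.10 and 0.47 (adjusted p = 1.27e-06 and 0.00456), and Rgs2, a regulator of G protein signalling, rose by 0.72 (adjusted p = 0.00606).

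**Figure D5:**
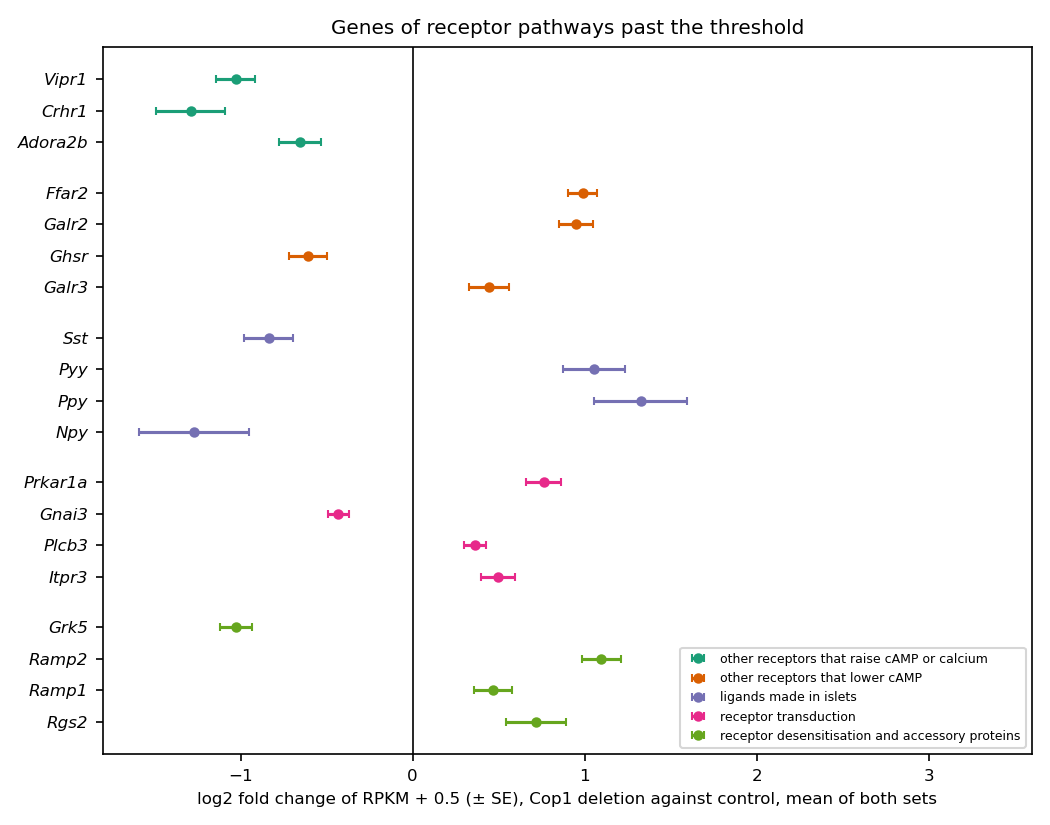
Log2 fold change of RPKM + 0.5 ± SE (horizontal axis) in Cop1-deleted against control libraries, mean of both sets, for the list genes named above, coloured by list. Vipr1, Crhr1, Grk5 and Npy lie at or below -1, and Ramp2, Pyy and Ppy above 1.

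With the added Etv deletions, Vipr1 and Grk5 passed the test that the 9 receptors did not. In set 1, where 6.34% of all genes were called, 2 of 18 receptors listed as raising cyclic AMP or calcium rose and 1 fell. There 3 of 14 receptors listed as lowering cyclic AMP fell, and 1 of 11 ligands, 1 of 32 transduction genes and 1 of 13 accessory genes rose. In set 2, where 1.73% of all genes were called, 1 of 18, 0 of 14, 0 of 11, 1 of 32 and 1 of 13 genes of these lists rose and none fell, by limma. Against Cop1-deleted libraries, Vipr1 rose by 0.87 in set 1 (limma adjusted p = 0.00209), to 17 to 19.1 RPKM, and Grk5 by 0.70 (adjusted p = 0.00212). In set 2 Vipr1 rose by 0.63 (adjusted p = 0.0395) and Grk5 by 0.52 (adjusted p = 0.0354), calls lost without the 2 Cop1-deleted libraries that carry Y-linked transcripts (adjusted p = 0.336 and 0.158). In set 1 Adora2b rose by 1.36 (adjusted p = 6.53e-05), Sst by 1.07 (adjusted p = 0.00226) and Gnai3 by 0.33 (adjusted p = 0.0277). There Ffar2 fell by 0.77, Galr3 by 0.84, Galr2 by 0.63 and Vipr2, another VIP and PACAP receptor, by 1.06 (adjusted p = 0.000344, 0.00272, 0.00736 and 0.0158).

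Cell type markers give the setting of these changes. Of 9 β-cell markers, all detected, 6 were lower and 1 higher in Cop1-deleted islets in the mean of both sets. Those lower were Ins1, Mafa, Slc2a2, Nkx6-1, G6pc2 and Slc30a8, and Iapp was higher. Slc2a2, the glucose transporter of mouse β cells, was at 189 to 271 RPKM in set 1 controls and 45.0 to 68.9 in Cop1-deleted libraries, and at 36.4 to 85.8 and 4.61 to 7.82 in set 2. Their summed level was 264505 to 299218 RPKM in set 1 controls, 217331 to 238220 in Cop1-deleted and 265892 to 299188 in Cop1 Etv1/4/5 libraries. In set 2 the sums overlapped, at 167472 to 232673 in controls, 165806 to 243660 in Cop1-deleted and 213022 to 238735 in Cop1 Etv4/5 libraries. These sums are mostly insulin: Ins1 and Ins2 held 38.9% to 40.7% of all RPKM in set 1 controls. By single markers, 6 of 9 were also lower and 1 higher in set 2 Cop1-deleted libraries, with a median log2 fold change of -0.59. The part of the β-cell marker change in the falls of Glp1r, Gipr and Gcgr was not tested. Of 7 α-cell markers none was called, with sums of 18496 to 41598 and 17625 to 27076 RPKM in set 1 and 19019 to 31637 and 17248 to 28861 in set 2. Gcg, with ranges given above, made up most of these sums. Of 4 δ-cell markers 2 fell, Sst and Ghsr. The marker Ppy rose. Of 4 tested duct markers 1 rose, Krt7, with duct sums of 111 to 151 RPKM in set 1 controls and 137 to 171 in Cop1-deleted libraries, and with sums of 266 to 303 RPKM in set 2 controls and 551 to 825 in Cop1-deleted libraries. No acinar, immune, endothelial, stromal or neural marker was called in that comparison by limma, and no marker was at 0 in all libraries, although Amy2a5 and Prss1 of acinar cells and Cftr of duct cells stayed at or below 0.770 RPKM. Acinar sums ran from 1930 to 5129 RPKM in controls and from 2574 to 8293 in Cop1-deleted libraries of set 1, and from 593 to 8832 and 3015 to 17256 in set 2.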

How the data were processed

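Islet RNA sequencing was summarised by the authors, who deposited RPKM per NCBI Gene number, per the file headers, with the mm9 build named in the submitters' processing notes. The aligner, counter and annotation were not given in the sources used here. Of 24 columns, 22 were matched to samples by title, and 2 columns of per-sample values were not used. NCBI Gene numbers were paired with symbols through the RefSeq table (24998 of 28059 matched). The 14342 genes that reached 1 RPKM in 4 or more libraries entered the tests, made on log2(RPKM + 0.5), which understates changes of low genes, with limma 3.58.1 in R 4.3.3 (trend and robust, 6 group means, 8 comparisons, two-sided, Benjamini-Hochberg over all tested genes). RPKM gives no read counts, so depth is known only relative to the deepest library, from the steps between values below 0.3 RPKM. On simulated data with 1.5-fold changes, 79% of changed genes were called in the mean of both sets, 54% in set 1 and 64% in set 2. In the comparisons of libraries with added Etv deletions 61% to 70% were called. The simulation drew normal noise with 1 SD per gene, so it held no libraries that stand apart. Exact permutations, other filters, pseudocounts, scalings, covariates and left-out libraries were tried. Genes named are the 9 receptors, the targeted genes and Esr1, up to 4 called genes of lowest adjusted p in each list and comparison, and per receptor the 3 genes most correlated with it. Members and lists were chosen with earlier results of these data known. A result on 1 gene of the pathway lists is not reported here.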

Additional observations from a re-analysis of the deposited data

How the results depend on the processing

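The count of 3 receptors lower in Cop1-deleted islets in the mean of both sets stayed at 2 to 3 under all 39 alternatives, and the set difference stayed at 0. No direction of a called value reversed. In set 1 alone, where none was called, array weights, a fit of each set alone, and leaving out the Esr1-carrying control with set 2 Cop1-deleted replicate 2 each called 3, leaving out both set 2 Cop1-deleted libraries with Y-linked transcripts called 2, a fit of 2 groups alone called 1, and leaving out single libraries called 0 to 2. In set 2 alone (0 called), scaling without Ins1 and Ins2 called 3, a 3 RPKM filter and array weights called 1 each, and leaving out single libraries called 0 to 1. Counts for the permutation test are at an unadjusted p below 0.05, unlike those of the other alternatives. For Cop1 Etv1/4/5 against Cop1-deleted libraries (0 called), array weights called 2, Gipr higher and Sstr3 lower. A fit of 2 groups alone called 2, Glp1r and Gipr, both higher, and the permutation test called 1. Set against controls, array weights called 2. For Cop1 Etv4/5 against Cop1-deleted libraries (0 called), array weights called 2, the permutation test 1 and leaving out single libraries 0 to 2. Against controls (1 called), no filter, the Ddx3y covariate, fits of each set or of 2 groups alone and the permutation test called 0. There array weights called 3, Gipr lower and Ffar1 and Galr1 higher, and leaving out single libraries called 0 to 1. The causes were not tested. The 2 alternatives that leave out pairs of libraries were chosen after seeing the data. With equal total RPKM the median of all genes was 0.12 for Cop1 deletion in set 1, -0.13 for Cop1 Etv1/4/5 against Cop1-deleted libraries and 0.20 for the set difference. Without Ins1 and Ins2 it was -0.16 for Cop1 deletion and -0.12 for Cop1 Etv4/5 against controls in set 2, and 0.16 for the set difference. Array weights called more of all genes too, 2909 higher and 3350 lower in the mean of both sets against 1372 and 1505. A fit of each set alone gives no value for the mean of both sets. No paired analysis was possible because the replicate numbers come from accession order and pair no samples. Relative depth limits low genes, and Galr1 and Gpr119 had the widest intervals.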

Other observations

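Etv5, a factor targeted in both additional deletions, per the labels, was itself lower in Cop1-deleted islets in the mean of both sets, by a log2 fold change of -0.85 (SE 0.23, limma adjusted p = 0.0119), with -0.57 in set 1 (adjusted p = 0.392) and -1.13 in set 2 (adjusted p = 0.0124). Against set 2 controls it was lower in Cop1 Etv4/5 libraries by -1.46 on the log2 scale (adjusted p = 0.00368), and against Cop1-deleted libraries it did not pass the test (-0.33, adjusted p = 0.514). Ramp2, an accessory protein of class B receptors, remained above controls with the added deletions, by 1.78 in set 1 (adjusted p = 1.42e-06) and 0.75 in set 2 (adjusted p = 0.00261), and its rise with Cop1 deletion differed between sets by 1.13 (adjusted p = 0.0086).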
